A study of Mus musculus with 9 samples.

Results

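The substantia nigra pars compacta of mice given MPTP was compared with that of control mice across all annotated genes with measurable RNA. MPTP is a small molecule that damages dopamine neurons and is used to model Parkinson's disease. Genes were taken into the comparison when they carried an Ensembl identifier and had a mean FPKM of at least 0.5 over the 9 bulk RNA libraries of the study, FPKM being fragments scaled by transcript length and library size. This rule was met by 13810 of the 27339 genes measured. Cenpp, Glyctk and Olfr288 lay just outside it with mean FPKM values of 0.498 to 0.499, and Zbed6, Trpm5 and Vill just inside it at 0.501.

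There were 3 groups of 3 libraries from mouse nigra. The control group (Ctrl) is labelled with no treatment beyond that name, the MPTP group received MPTP, and the remaining group was given MPTP and fed a medium-chain triglyceride ketogenic diet. The diet group entered the statistical model only to estimate the spread, and none of its values are described. The sources used here do not give strain, sex, age, the dose and timing of MPTP or the diet of the controls. Whether the libraries are separate animals is likewise not stated, so p-values measure only the spread between these libraries. Library totals lay between 33187343 and 40001344 counts, and 6.14% to 7.06% of counts came from mitochondrial genes. Levels are given below as CPM, counts scaled to library size, and 3 values of a group stand in the order of libraries 1, 2 and 3.

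Background on the biology is as follows. MPTP is oxidised, chiefly in glia by monoamine oxidase B, to a cation that the dopamine transporter carries into dopamine neurons, where it blocks complex I of the respiratory chain. Dopamine neurons of the nigra make dopamine with tyrosine hydroxylase and aromatic amino acid decarboxylase, load it into vesicles and take it back up after release. Misfolded protein in the cytosol releases heat-shock factors, which switch on cytosolic chaperones. Misfolded protein in the endoplasmic reticulum (ER) triggers the unfolded protein response, whose ATF6 and XBP1 arms raise ER chaperones and whose PERK arm acts through ATF4 on amino acid metabolism, a programme shared with the integrated stress response.

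Most genes differed little between MPTP and Ctrl. The log2 fold change of MPTP over Ctrl had a median of -0.0030 over the 13810 genes, with quartiles of -0.078 and 0.068, and 51.3% of genes lay below 0. With edgeR's quasi-likelihood test and Benjamini-Hochberg adjustment 2 genes (0.0145%) fell at an adjusted p under 0.05, both of them cytosolic chaperones, and 0 genes (0%) rose. At an unadjusted p under 0.05 there were 384 lower genes (2.78%) and 356 higher genes (2.58%). The highest MPTP library was lower than the lowest Ctrl library for 768 genes (5.56%), and the lowest MPTP library was higher than the highest Ctrl library for 676 (4.90%). Groups that did not overlap in this way are called apart below. These shares are the background for every count of non-overlapping genes that follows.

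Differences beyond 0.5 on the log2 scale were found in 414 genes, of which 270 were lower and 144 higher under MPTP. For 7273 genes (52.7%) the sign of the difference stayed the same when each of the 6 libraries was left out in turn. To describe the shift by cell type and function, 75 gene lists were used, holding 1541 distinct genes that passed the level minimum and 153 that did not. The median fold change was below 0 in 52 lists and above 0 in 23. It kept its sign in 41 lists on leaving out each library, and changed sign in 34. In 70 of the 75 lists at least 1 library, when left out, moved the median by over 1.5 times or turned its sign. The 5 that stayed within 1.5 times were immediate early transcription factors, immediate early effectors, perivascular macrophages, ventral-tier dopamine neurons and the chaperones of the endoplasmic reticulum.

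Each library was also given a score per list, the mean over its genes of log2 CPM relative to the Ctrl mean. The MPTP scores lay wholly outside the Ctrl scores in 12 of the 75 lists, 11 lower and 1 higher. The shares above are for single genes, and how many lists would be apart by chance was not tested. Among the 11 lower lists, that of Schwann cells had only 3 tested genes. Glycolysis was another, although 11 of its 21 genes lay above 0 (median 0.0018). Its score includes Gapdh, whose values are uncertain. MPTP 1 was the MPTP library farthest from Ctrl in 42 of the 75 lists, MPTP 2 in 14 and MPTP 3 in 19. The plot of list medians shows where the spread over libraries is widest.

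**Figure D1:**
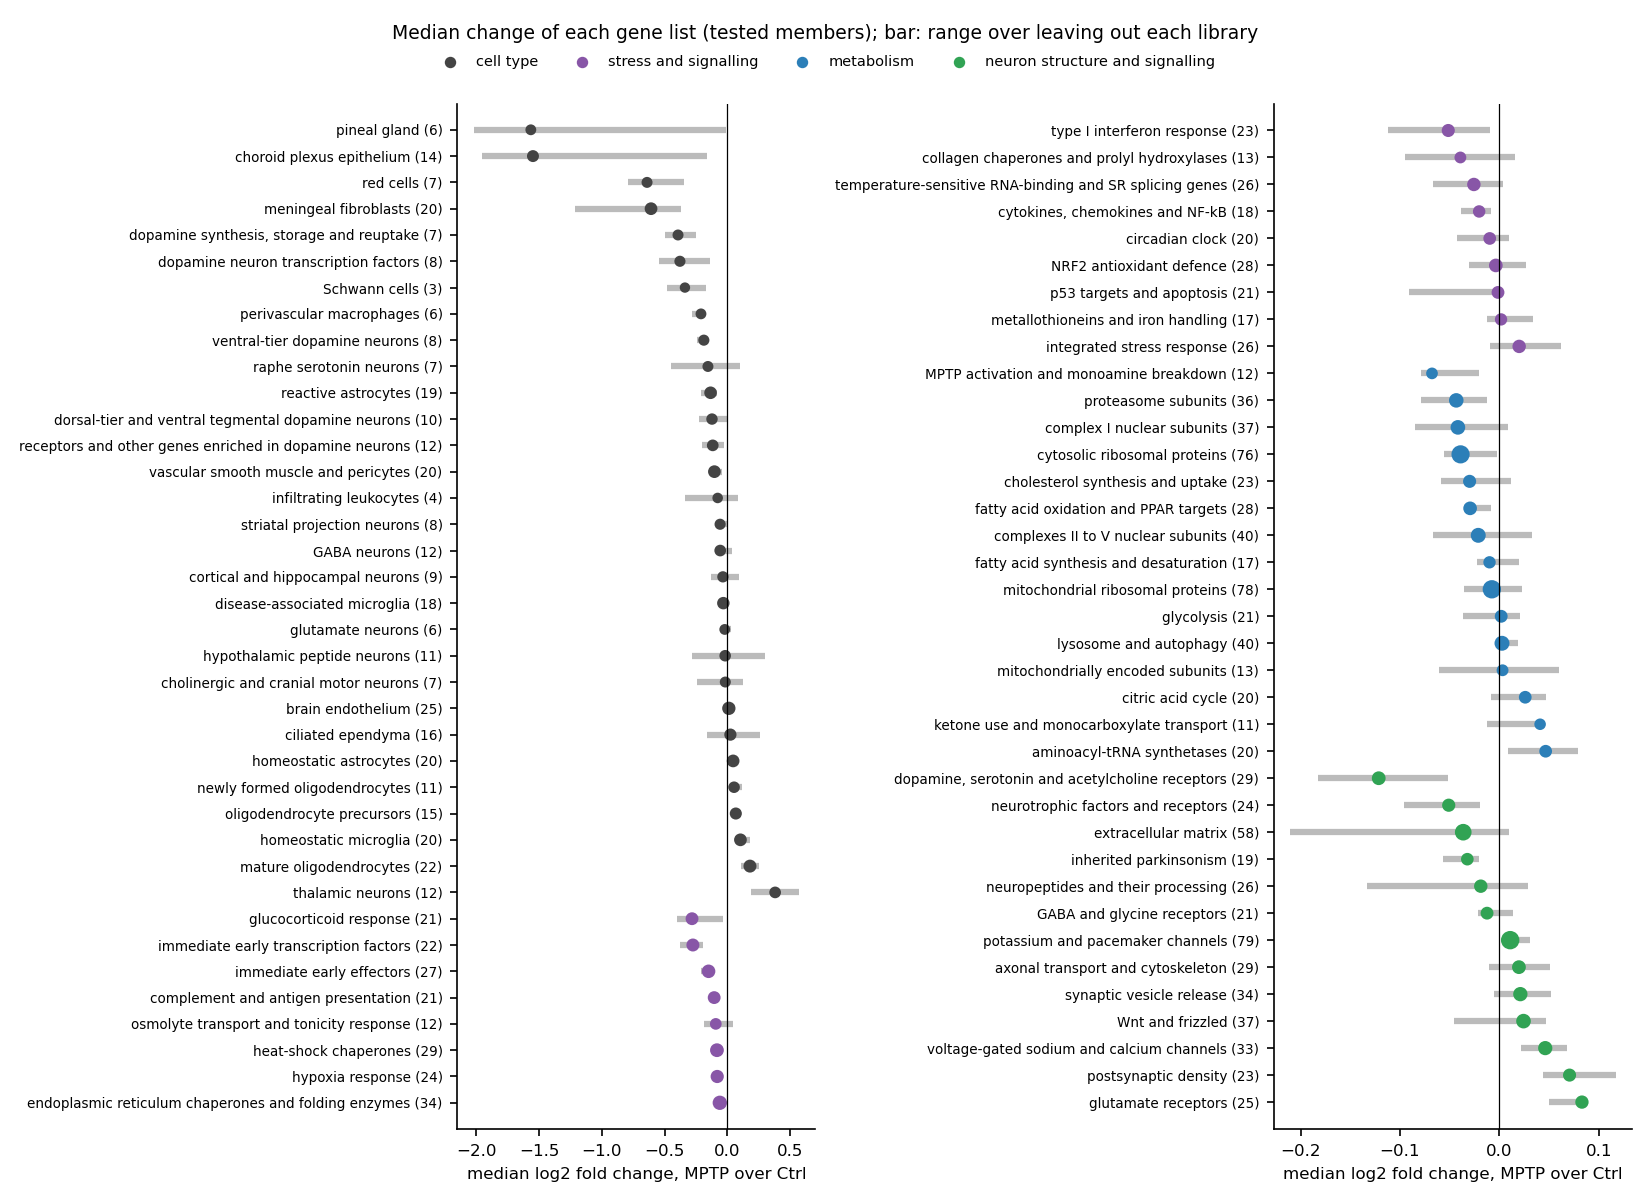
Median log2 fold change (MPTP over Ctrl, horizontal axes, which differ in range between panels) of the tested members of 75 gene lists, with the number of members in parentheses and dot size growing with it. Grey bars span the medians when each of the 6 libraries is left out; the widest bars belong to the pineal, choroid plexus and meningeal lists.

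Dissected nigra borders on other structures, and its neighbours were present in unequal amounts. Gad1 and Gad2, which make GABA and mark the neighbouring pars reticulata, lay at 89.7 to 114 and 57.8 to 69.0 FPKM, and Mbp, the myelin basic protein gene, at 2253 to 2900 FPKM. Tph2, the serotonin-synthesis gene of the raphe, lay at 9.59, 18.6 and 31.9 FPKM in Ctrl and at 3.78, 29.8 and 20.6 FPKM in MPTP. Prkcd, a kinase gene of thalamic relay neurons, lay at 107, 50.2 and 67.6 FPKM in Ctrl and at 164, 105 and 73.6 FPKM in MPTP. MPTP 1 thus held the least raphe RNA and the most thalamic RNA of the 6 libraries by these genes. Hcrt and Pmch, hypothalamic peptide genes, differed more between libraries of a group than between groups, Pmch spanning 50.8 to 320.2 FPKM in Ctrl and 45.3 to 264 FPKM in MPTP.

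Ctrl 3 stood apart through choroid plexus and pineal RNA. Ttr, the transthyretin gene of choroid plexus, was at 6.57, 4.89 and 1064 CPM in Ctrl and at 9.37, 5.38 and 13.5 CPM in MPTP. Tph1, the pineal tryptophan hydroxylase, was at 0, 1.48 and 48.8 CPM in Ctrl and at 0.453, 2.54 and 0.225 CPM in MPTP. High values therefore occurred in 1 control library alone, and the median fold changes of the choroid (-1.55) and pineal (-1.57) lists shrank to -0.16 and -0.01 without it. The log2 fold change of Ttr, -5.24 ± 2.47 (SE), turned to 0.72 without Ctrl 3. Results below that hold a value without Ctrl 3 or without MPTP 1 give it for this reason.

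Genes of dopamine neurons were lower in MPTP, with no member past the adjusted threshold. In the list for synthesis, storage and reuptake all 7 tested genes lay below 0, with a median of -0.39. The groups did not overlap for 3 of them (42.9%, against 5.56% of all genes). Th, the rate-limiting tyrosine hydroxylase, was at 108, 83.7 and 69.0 CPM in Ctrl and at 55.3, 63.8 and 68.0 CPM in MPTP. Slc6a3, the dopamine transporter, was at 182, 158 and 129 CPM in Ctrl and at 126, 116 and 93.1 CPM in MPTP. Slc10a4, a vesicular transporter relative found in monoamine neurons, was at 31.6, 26.6 and 26.6 CPM in Ctrl and at 18.03, 25.4 and 22.2 CPM in MPTP. The 3 genes shared only the separation of the groups: MPTP 1 was lowest for Th and Slc10a4, MPTP 3 for Slc6a3, and the gap between the nearest Ctrl and MPTP library was small in each.

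The remaining synthesis and storage genes overlapped between groups. Ddc, the decarboxylase that completes dopamine synthesis, was at 113, 99.1 and 124 CPM in Ctrl and at 67.0, 101 and 88.4 CPM in MPTP. Slc18a2, the vesicular monoamine transporter, was at 117, 102 and 119 CPM in Ctrl and at 70.1, 109 and 95.3 CPM in MPTP. In both genes MPTP 1 was the lowest of the 6 libraries and MPTP 2 lay within the Ctrl range. Drd2, the dopamine autoreceptor of these neurons, was closest between the groups, at 32.4 to 35.7 CPM in Ctrl and 27.0 to 34.4 CPM in MPTP. Gch1, which makes the cofactor of tyrosine hydroxylase, was at 10.47, 9.88 and 19.8 CPM in Ctrl and at 7.53, 11.9 and 9.14 CPM in MPTP, its difference resting largely on Ctrl 3 (-0.49 ± 0.28, and -0.09 at its smallest on leaving out a library).

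Transcription factors that specify and maintain dopamine neurons showed the same sign in 8 of 8 tested genes (median -0.38), with wide differences between MPTP libraries. Pitx3, a homeodomain factor confined in brain to dopamine neurons, was at 3.40, 2.49 and 2.04 CPM in Ctrl and at 0.906, 1.601 and 0.8997 CPM in MPTP. Its groups did not overlap, and its log2 fold change of -1.22 ± 0.37 was the largest of the dopamine genes described here, though at a low level and with an adjusted p of 0.88 by edgeR's quasi-likelihood test. Nr4a2 (Nurr1), which drives Th and the transporters, was at 31.7, 29.6 and 26.6 CPM in Ctrl and at 20.04, 27.4 and 21.8 CPM in MPTP. Lmx1b was at 11.8, 10.3 and 12.1 CPM in Ctrl and at 5.18, 10.8 and 9.73 CPM in MPTP, again with MPTP 1 lowest and MPTP 2 inside the Ctrl range. The list score of MPTP 1 was -1.003, that of MPTP 2 was -0.06 and that of MPTP 3 was -0.36, so the list median of -0.38 became -0.14 without MPTP 1.

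Markers of dopamine-neuron subtypes were listed by tier. Of 8 genes of the ventral tier, whose neurons are lost first in Parkinson's disease, 7 lay below 0 (median -0.19, range -0.25 to -0.15 on leaving out a library). The groups were apart and lower for 3 (37.5%, against 5.56% of all genes). Ndnf, a secreted neuron-derived factor, was at 27.1, 24.3 and 19.4 CPM in Ctrl and at 18.9, 17.6 and 19.1 CPM in MPTP. Igf1 was at 15.9, 16.3 and 14.8 CPM in Ctrl and at 14.7, 11.8 and 12.1 CPM in MPTP. Aldh1a1, the retinal dehydrogenase that labels this tier, overlapped at 215 to 261 CPM in Ctrl and 203 to 240 CPM in MPTP. Its close relative Aldh1a7, which is near-identical in sequence so that reads may be shared, was at 2.85, 1.61 and 2.47 CPM in Ctrl and at 1.05, 1.63 and 0.872 CPM in MPTP. Among 10 genes of the dorsal tier and ventral tegmental area, 8 lay below 0 with a median of -0.12 and none had groups apart; that median ranged from -0.23 to 0.00 on leaving out a library. A difference between the tiers was not tested.

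Among 12 receptors and other genes enriched in dopamine neurons 9 lay below 0 (median -0.12, but -0.03 without Ctrl 1). The library scores overlapped, and the summed level was 790 to 940 CPM in Ctrl and 792 to 873 CPM in MPTP. Apart and lower were 2 genes (16.7%, against 5.56% of all genes), Chrna6 and Sncg. Chrna6, the alpha6 nicotinic receptor subunit of dopamine terminals, was at 29.6, 30.1 and 22.4 CPM in Ctrl and at 19.5, 19.3 and 17.5 CPM in MPTP, so that every MPTP library lay below every Ctrl library (log2 fold change -0.54 ± 0.14, -0.67 to -0.47 on leaving out a library). Chrnb3, its beta3 partner, was at 21.0, 20.5 and 14.5 CPM in Ctrl and at 15.03, 11.2 and 12.2 CPM in MPTP, with 1 overlap between Ctrl 3 and MPTP 1. Sncg, gamma-synuclein, was at 25.6, 28.1 and 25.4 CPM in Ctrl and at 20.5, 22.2 and 21.9 CPM in MPTP (-0.29 ± 0.08). The lowest library was MPTP 3 for Chrna6, MPTP 2 for Chrnb3 and MPTP 1 for Sncg, so no single MPTP library carried all 3 genes. In bulk tissue, fewer dopamine neurons and less RNA per neuron cannot be told apart.

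**Figure D2:**
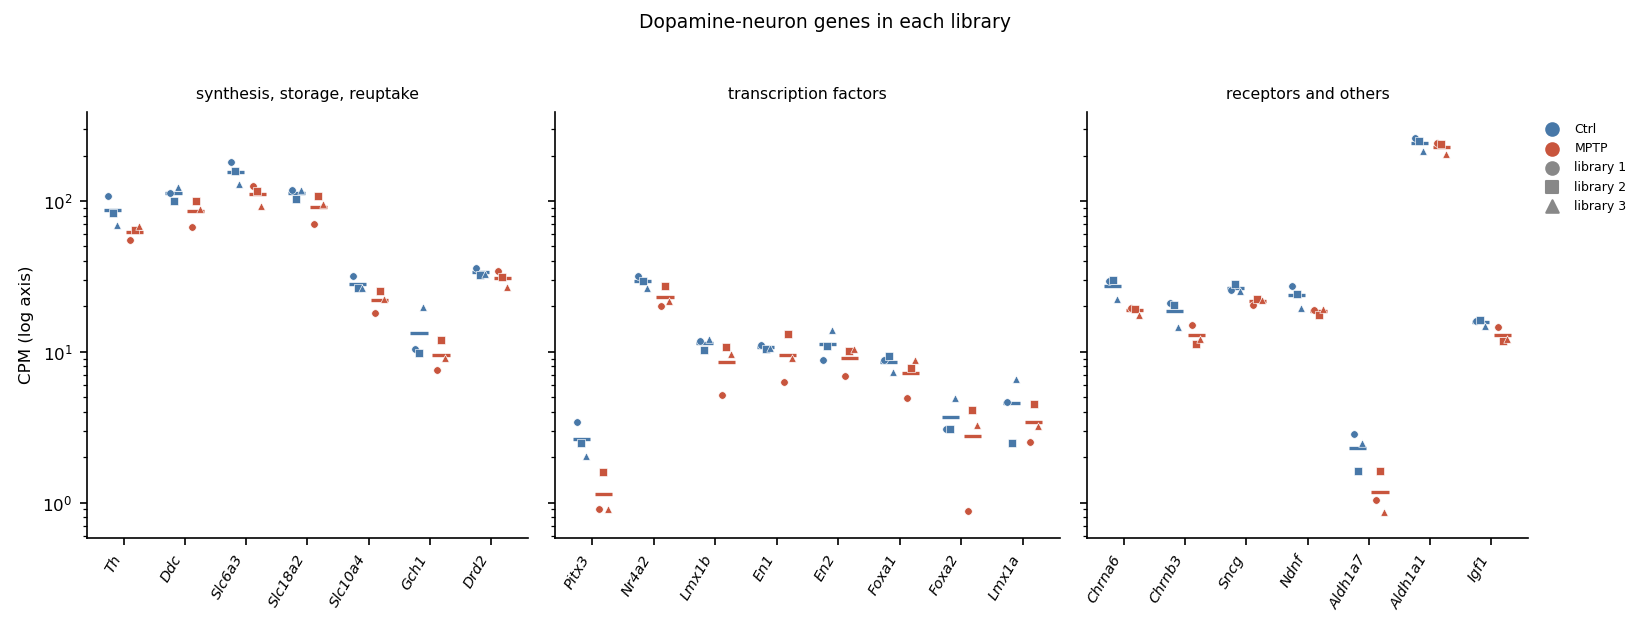
CPM (log axis) of dopamine-neuron genes in each Ctrl (blue) and MPTP (red) library; marker shape gives the library number and horizontal lines the group means. Chrna6 and Sncg separate the groups, while Ddc, Slc18a2 and Lmx1b are low mainly in MPTP 1.

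MPTP 1 had the lowest score for dopamine synthesis and storage (-0.53) and for raphe genes (-1.23), and the highest for thalamic genes (0.81). Among the Ctrl libraries, Ctrl 1 likewise had the lowest raphe score (-0.55) and the highest thalamic score (0.32). Its dopamine score, 0.09, was the highest of the Ctrl libraries. MPTP 3 had scores of -0.40 for dopamine synthesis and storage, 0.06 for raphe genes and 0.03 for thalamic genes. The summed level of the 12 thalamic genes was 909 to 1409 CPM in Ctrl and 1093 to 1905 CPM in MPTP, highest in MPTP 1, and the 12 genes all lay above 0 (median 0.38), while no gene had groups apart. The 7 raphe genes summed to 98.4 to 213 CPM in Ctrl and 68.1 to 205 CPM in MPTP, lowest in MPTP 1, and none was at 0. The part of dissection in the dopamine-gene differences was not tested. Without MPTP 1 the median of the synthesis and storage list was -0.25, and without both Ctrl 3 and MPTP 1 it was -0.23.

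Cytosolic chaperones were lower in MPTP. Of 29 tested heat-shock genes 24 lay below 0, and in 10 of them (34.5%) every MPTP library lay below every Ctrl library, against 5.56% of all genes. None had all MPTP libraries above, and the list median was -0.08 (-0.13 without MPTP 1 and -0.05 without Ctrl 2). The list score was -0.18, -0.19 and -0.21 in the MPTP libraries against -0.04 to 0.05 in Ctrl, so no single MPTP library carried it.

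Dnajb1 and Hspa1b fell. Dnajb1, an HSP40 co-chaperone that hands substrates to HSP70, was at 84.4, 91.1 and 89.8 CPM in Ctrl and at 58.4, 61.7 and 60.7 CPM in MPTP. The 3 MPTP libraries agreed closely and lay well below the Ctrl libraries, with a log2 fold change of -0.55 ± 0.07 (adjusted p 0.014, edgeR's quasi-likelihood test). Hspa1b, an inducible HSP70, was at 18.8, 16.2 and 22.5 CPM in Ctrl and at 7.33, 7.94 and 9.22 CPM in MPTP, again with no overlap (-1.23 ± 0.17, adjusted p 0.042 in the same test). On leaving out each Ctrl or MPTP library the log2 fold change of Dnajb1 stayed between -0.58 and -0.53 and passed the threshold only without Ctrl 1 or without MPTP 1. That of Hspa1b stayed between -1.33 and -1.10 and passed in none of the 6, nor without library 3 of the diet group (-1.23). Hspa1a, its neighbour with a near-identical sequence whose reads may be exchanged with it, was at 17.5, 22.8 and 18.6 CPM in Ctrl and at 11.7, 15.2 and 12.2 CPM in MPTP.

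Other inducible chaperones and co-chaperones had the same arrangement without passing the adjusted threshold in edgeR's quasi-likelihood test, while DESeq2 called Hspb1 (adjusted p 0.0017) and Dnajb4 (adjusted p 0.015) lower. Hspb1 (HSP27), a small heat-shock protein that holds unfolded protein, was at 17.7, 15.4 and 17.5 CPM in Ctrl and at 11.4, 9.30 and 11.2 CPM in MPTP. Dnajb4, another HSP40, was at 94.2, 85.2 and 90.5 CPM in Ctrl and at 68.2, 77.0 and 72.9 CPM in MPTP. Hspb8 and Bag3, partners in chaperone-assisted autophagy, had log2 fold changes of -0.46 ± 0.13 and -0.50 ± 0.24, and Bag3 was lowest in MPTP 1 at 9.94 CPM. Hspa8, the constitutive HSP70, was at 1869 to 2144 CPM in Ctrl and 1742 to 2008 CPM in MPTP, and Hsp90ab1, a cytosolic HSP90, at 1420.1 to 1534 CPM against 1344 to 1423 CPM, and both overlapped. Dnaja1 and Fkbp4, co-chaperones of HSP70 and HSP90, were separated by narrow margins (-0.12 ± 0.04 and -0.13 ± 0.06).

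Promoter windows were searched for the binding motif of heat-shock factors, which is built from the unit GAA and its inverse. Windows of 300 bases (250 before and 50 after the start) were taken from RefSeq on GRCm38.p6, where 23 of the 29 heat-shock genes and 10760 of all members had a window. A pair of facing units (GAANNTTC or TTCNNGAA, each its own reverse complement) occurred in 13 of the 23 (56.5%), against 13.6% of members and 15.1% of all 32851 windows. All 13 genes with a pair lay below 0 (median -0.13). So did 7 of the 10 heat-shock genes with a window and no pair (median -0.083). The groups were apart and lower in 8 of the 13 and in 2 of the 10. Genes with 3 adjoining units numbered 5 of 23 (21.7%, against 0.530% of members), namely Hsph1, Dnajb6, Hspd1, Hspe1 and Chordc1, and none of these 5 had groups apart. The 8 pair-bearing genes with groups apart were Hspa1a, Hspa1b, Hspb1, Hspb8, Dnaja1, Dnajb4, Bag3 and Fkbp4. This division was seen after the values were known and was not tested. The genes counted are not all independent. Hspd1 and Hspe1 hold the same stretch (chr1:55088059-55088076), and Hspa1a and Hspa1b, with the same pair, may exchange reads. No pair was found in the windows of Dnajb1, which says only that these letters are absent there.

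ER chaperones and folding enzymes moved in the same direction. Of 34 tested genes 29 lay below 0 (median -0.06), the groups were apart and lower in 10 (29.4%, against 5.56% of all genes), and none was apart and higher. The list score was -0.09, -0.13 and -0.08 in MPTP and -0.02 to 0.01 in Ctrl, and its median stayed between -0.08 and -0.06 on leaving out each library. Hspa5 (BiP), the HSP70 of the ER, which also holds the stress sensors inactive, was at 340.4, 355 and 359.6 CPM in Ctrl and at 264, 268 and 279 CPM in MPTP. Its difference of -0.38 ± 0.06 had an adjusted p of 0.17 in edgeR's quasi-likelihood test, and every MPTP library lay well below every Ctrl library. The same test called Hspa5 in some other settings, which are given below.

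Other members described different steps of ER quality control. Xbp1, the transcription factor spliced by IRE1, was at 96.2, 112 and 99.2 CPM in Ctrl and at 83.1, 81.1 and 85.1 CPM in MPTP. Dnajc3, a co-chaperone of BiP, was at 103, 99.0 and 101 CPM in Ctrl and at 82.4, 88.5 and 84.7 CPM in MPTP. Manf, a secreted ER-stress protein with neurotrophic action on dopamine neurons, was at 46.8, 48.5 and 47.8 CPM in Ctrl and at 36.9, 34.2 and 40.5 CPM in MPTP. In each of the 3 genes the groups were clearly apart. Herpud1 (ER-associated degradation), Pdia4 (disulfide isomerase), Dnajb11, Sdf2l1, Sec61b and Pdia6 were also apart, with log2 fold changes from -0.32 for Sdf2l1 to -0.10 for Pdia6. The abundant lectin and HSP90 chaperones Calr, Canx and Hsp90b1 overlapped between groups, with differences of -0.10, -0.05 and -0.08.

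The ER stress element, the motif bound by ATF6 with NF-Y (CCAAT, a 9-base spacer, CCACG, searched on both strands), was found in 9 of the 29 ER genes with a window (31.03%), against 0.167% of members and 0.119% of all windows. It was in 0 of 23 integrated stress response genes and 0 of 23 heat-shock genes with a window, while no ER gene held a heat-shock unit pair. Of the 9 genes with the element 7 lay below 0 and 3 had groups apart and lower, and of the 20 without it 19 lay below 0 and 6 had groups apart. Windows were taken for genes of smallest p, Dnajb1 and Hspa1b of the heat-shock list, Hspa5 of the ER list and Fos of the immediate early list. Those of Dnajb1 and Fos held no match to the motif searched for in them and are not shown. Shown here are the promoter windows of Hspa1b (chr17:34959189-34959488, minus strand) and Hspa5 (chr2:34771840-34772139, plus strand), with the unit pair or the element in capitals. The pair begins 104 bases before the start of Hspa1b and the element 65 bases before that of Hspa5.
Hspa1b: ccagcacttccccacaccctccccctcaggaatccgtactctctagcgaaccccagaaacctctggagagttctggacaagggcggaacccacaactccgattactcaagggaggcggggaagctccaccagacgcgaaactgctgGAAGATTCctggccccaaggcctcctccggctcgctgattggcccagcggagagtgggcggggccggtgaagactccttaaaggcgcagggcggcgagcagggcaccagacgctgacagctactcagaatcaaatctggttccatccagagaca
Hspa5: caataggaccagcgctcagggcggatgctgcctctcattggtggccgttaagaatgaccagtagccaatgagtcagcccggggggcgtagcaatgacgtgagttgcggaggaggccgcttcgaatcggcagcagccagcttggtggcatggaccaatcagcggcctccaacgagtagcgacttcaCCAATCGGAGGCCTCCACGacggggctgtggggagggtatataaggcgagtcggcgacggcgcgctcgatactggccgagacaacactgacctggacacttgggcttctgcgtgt

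The elements of the other 8 ER genes that held one, 2 of them in Hsp90b1, are shown because they share the fixed ends and vary in the spacer. They are written on the strand that reads CCAAT first, with the fixed ends in capitals (RefSeq, GRCm38.p6). Dnajc3 and Pdia6 had groups apart and the others did not. Syvn1 (0.02) and Derl3 (0.10), of ER-associated degradation, were the 2 above 0, though both changed sign on leaving out a library, and Creld2 was at -0.09 on the log2 scale.
Dnajc3 (chr14:118937827-118937845): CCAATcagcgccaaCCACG
Pdia6 (chr12:17266491-17266509): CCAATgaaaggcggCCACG
Calr (chr8:84847075-84847093): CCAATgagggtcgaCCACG
Canx (chr11:50325800-50325818): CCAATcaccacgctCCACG
Hsp90b1 (chr10:86705638-86705656): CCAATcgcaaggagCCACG
Hsp90b1 (chr10:86705533-86705551): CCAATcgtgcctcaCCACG
Creld2 (chr15:88819520-88819538): CCAATtgaggctcgCCACG
Syvn1 (chr19:6046532-6046550): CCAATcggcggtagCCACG
Derl3 (chr10:75893242-75893260): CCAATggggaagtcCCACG

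Genes of the amino acid arm of the stress response lay on both sides of 0. Of 26 tested integrated stress response genes 14 lay above 0 and 12 below, with a median of 0.02 that was -0.0094 without MPTP 1. Asns, asparagine synthetase and a standard ATF4 target, was at 89.7, 93.1 and 87.9 CPM in Ctrl and at 97.8, 92.8 and 92.5 CPM in MPTP. Pck2, mitochondrial PEP carboxykinase, was at 26.6, 27.3 and 25.4 CPM in Ctrl and at 31.3, 28.8 and 35.5 CPM in MPTP, with groups apart in the higher direction. Aldh18a1 and Slc7a1, of proline synthesis and arginine uptake, were also apart and higher, by 0.14 ± 0.08 and 0.09 ± 0.06. Ddit4, a brake on mTORC1, was the exception at 54.6, 41.6 and 35.8 CPM in Ctrl and 33.7, 30.1 and 32.8 CPM in MPTP. Aminoacyl-tRNA synthetases, also ATF4 targets, lay above 0 in 18 of 20 genes (median 0.05, but 0.0083 without MPTP 1, and library scores that overlapped between groups), with Lars, Cars and Wars apart and higher (3 of 20, against 4.90% of all genes). Whether the 2 arms differ was not tested.

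**Figure D3:**
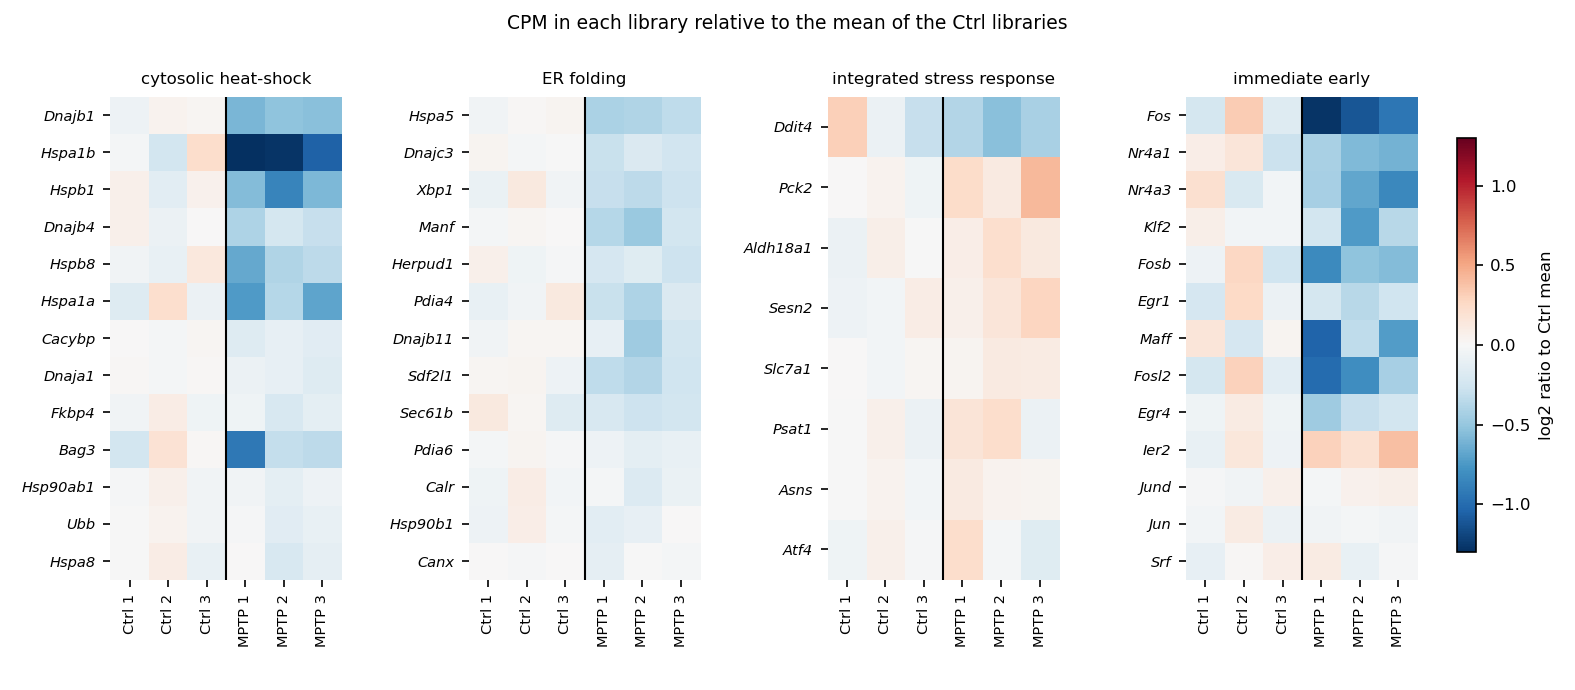
Log2 ratio of CPM in each library to the mean of the 3 Ctrl libraries (blue lower, red higher) for cytosolic chaperones, ER folding genes, integrated stress response genes and immediate early genes. The 3 MPTP columns are blue for most chaperone and ER genes drawn, while the integrated stress response panel is mixed. Each panel includes the genes of its list with groups apart, so its colours follow from that choice and do not stand for the whole list.

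Collagen folding genes included 2 that were apart and lower by wide margins. Serpinh1 (HSP47), the collagen chaperone of the ER and itself a heat-shock gene, was at 28.6, 28.9 and 31.6 CPM in Ctrl and at 15.5, 21.8 and 22.3 CPM in MPTP. P4ha1, a collagen prolyl hydroxylase, was at 50.7, 51.3 and 55.1 CPM in Ctrl and at 42.2, 42.3 and 43.5 CPM in MPTP. Both had groups apart, with differences of -0.58 ± 0.12 and -0.29 ± 0.06. The whole list of 13 collagen chaperones and hydroxylases had a median of -0.04, which changed sign on leaving out a library (-0.09 to 0.02). In it 9 genes lay below 0, and 3 were apart and lower (23.1% of the list, against 5.56% of all genes).

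Hypoxia-responsive genes lay below 0 in 18 of 24 cases (median -0.08), with 4 apart and lower (16.7%, against 5.56%). Vegfa, the main angiogenic growth factor, was at 84.5, 90.5 and 89.0 CPM in Ctrl and at 68.2, 70.5 and 77.4 CPM in MPTP, and the groups were apart (-0.29 ± 0.06). P4ha1, Ddit4 and Mxi1 were the other separated genes. Ldha, lactate dehydrogenase A, was at 149.6 to 161 CPM in Ctrl and 137 to 153 CPM in MPTP. Pgk1, a glycolytic gene on the same list, overlapped at 400.5 to 445 CPM against 394 to 449 CPM. P4ha1 and Ddit4 also stand on the lists of collagen folding and of the integrated stress response.

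Immediate early transcription factors, which neurons and vessels switch on within minutes of stimulation, were lower in MPTP. Of 22 tested genes 17 lay below 0 (median -0.28), 9 were apart and lower (40.9%, against 5.56% of all genes) and 1 was apart and higher. Fos was at 16.4, 24.1 and 17.1 CPM in Ctrl and at 7.93, 8.91 and 9.98 CPM in MPTP. Egr1 was at 41.7, 58.0 and 46.2 CPM in Ctrl and at 41.5, 37.8 and 40.5 CPM in MPTP, and Nr4a1 at 17.6, 18.5 and 13.7 CPM against 12.4, 11.1 and 10.8 CPM. For Fos the MPTP values were close together with a clear gap to the lowest Ctrl value, while for Egr1 the nearest libraries of the groups nearly met. Nr4a3, Klf2, Fosb, Maff, Fosl2 and Egr4 completed the separated genes, from -0.72 ± 0.28 for Fosl2 to -0.33 ± 0.34 for Egr4.

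The difference was not common to the whole class. Ier2 was apart in the other direction at 4.97, 5.87 and 5.08 CPM in Ctrl and 6.54, 6.07 and 6.94 CPM in MPTP. Jun and Jund, the AP-1 partners of Fos, overlapped at 45.0 to 51.2 CPM against 45.9 to 46.6 CPM and at 176 to 190.4 CPM against 179 to 192 CPM. Among 27 effector genes induced by activity, 17 lay below 0 (median -0.15). Apart and lower were 5 (18.5%, against 5.56% of all genes), and apart and higher 2 (7.41%, against 4.90%). Plk2, a kinase of synaptic scaling, was at 34.0, 40.8 and 36.4 CPM in Ctrl and at 31.1, 30.9 and 31.6 CPM in MPTP, whereas its relative Plk3 was higher, at 12.8 to 15.3 CPM against 16.2 to 16.5 CPM. Bdnf, the activity-dependent neurotrophin, was at 24.3, 24.4 and 19.7 CPM in Ctrl and at 16.3, 20.3 and 19.8 CPM in MPTP. In the Fos promoter window no full cyclic AMP response element was found, and the element was in 2 of 18 windows of the list, against 3.51% of members.

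Glucocorticoid-responsive genes were high in Ctrl 1 rather than low in MPTP. Of 21 genes 19 lay below 0 (median -0.28) and 6 were apart and lower (28.6%, against 5.56%), but the list score was 0.44 in Ctrl 1, -0.15 and -0.28 in Ctrl 2 and Ctrl 3, and -0.34 to -0.14 in MPTP. Without Ctrl 1 the median was -0.04. Sgk1, a kinase gene induced by glucocorticoids, shows the pattern at 195, 66.6 and 80.4 CPM in Ctrl and 76.3, 76.8 and 66.9 CPM in MPTP. Per1, which answers to both glucocorticoids and the clock, was at 59.5, 49.8 and 49.1 CPM in Ctrl and at 45.5, 42.6 and 44.7 CPM in MPTP, apart also without Ctrl 1.

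Among circadian clock genes Arntl was apart and higher, while the repressors Per1, Per2, Cry1 and Nfil3 were apart and lower. The other repressors on the list are not described. Arntl (Bmal1), the activator that peaks opposite the Per genes, was at 22.8, 21.5 and 22.2 CPM in Ctrl and at 29.6, 25.7 and 25.2 CPM in MPTP. Per2, a repressor, was at 29.5, 32.0 and 30.7 CPM in Ctrl and at 27.1, 23.5 and 27.3 CPM in MPTP, and Cry1, its partner, at 24.2, 25.7 and 24.4 CPM against 21.3, 23.1 and 21.6 CPM. Nfil3, a repressor of clock output genes, was at 13.1, 12.5 and 10.7 CPM in Ctrl and at 7.47, 10.3 and 7.31 CPM in MPTP. The groups were apart in these 4 genes and in Per1, and narrowly in Clock, the partner of Arntl, which was lower (-0.06 ± 0.05). In all 5 of 20 genes were apart and lower (25%, against 5.56%) and 1 was apart and higher. In the whole list 9 genes lay above 0, and the median of -0.01 changed sign on leaving out a library (-0.04 to 0.01). The sources used here do not give the time of day at which tissue was taken, and their part in this result was not tested.

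Genes of vessel mural cells, smooth muscle and pericytes together, held members apart in both directions. Among 20 tested genes 12 lay below 0, 7 were apart and lower (35.0%, against 5.56%) and 2 were apart and higher. Acta2, smooth-muscle actin, was at 35.8, 28.8 and 23.5 CPM in Ctrl and at 15.4, 16.1 and 19.3 CPM in MPTP. Tagln, transgelin of the same filaments, was at 18.9, 17.5 and 11.4 CPM in Ctrl and at 5.80, 6.34 and 9.98 CPM in MPTP. Myh11, smooth-muscle myosin, was at 28.7, 28.8 and 23.4 CPM in Ctrl and at 16.9, 18.2 and 20.8 CPM in MPTP. In the 3 genes Ctrl 3 was the lowest control and MPTP 3 the highest MPTP library, and the groups still did not touch.

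Myl9, Mylk, Cnn1 and Tinagl1 were the other separated mural genes, Tinagl1, a basement-membrane protein of smooth muscle, with the smallest p (-0.58 ± 0.13). The pericyte genes Rgs5 and Vtn overlapped at 132 to 152 and 69.1 to 89.2 CPM in Ctrl and 132 to 155 and 61.4 to 85.98 CPM in MPTP. Abcc9, a potassium-channel subunit of pericytes, was at 15.9, 20.6 and 18.8 CPM in Ctrl and at 21.4, 22.5 and 21.4 CPM in MPTP. Cspg4 (NG2), which pericytes share with oligodendrocyte precursors, was at 21.3, 23.7 and 22.3 CPM in Ctrl and at 23.8, 26.9 and 27.6 CPM in MPTP. The list of brain endothelium was level, with 14 of 25 genes above 0 and a median of 0.01. The median of the mural list (-0.10) lay closer to 0 than its mean over members (-0.24), and was -0.045 without MPTP 1 and -0.051 without Ctrl 1. A difference between smooth-muscle and pericyte genes was not tested.

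Meningeal genes moved in the same direction as the contractile genes. All 20 tested markers of meningeal fibroblasts lay below 0, with a median of -0.61. The groups were apart in only 4 (20%, against 5.56% of all genes), namely Igf2, Igfbp2, Slc13a4 and Tbx18. Igf2, a growth factor of meninges and choroid stroma, was at 101, 81.6 and 90.2 CPM in Ctrl and at 33.1, 40.5 and 64.0 CPM in MPTP. Igfbp2, its binding protein, was at 44.3, 36.9 and 40.7 CPM in Ctrl and at 33.03, 26.0 and 28.7 CPM in MPTP. Dcn, the proteoglycan decorin, was at 22.7, 19.98 and 18.8 CPM in Ctrl and at 11.8, 12.3 and 19.8 CPM in MPTP, with MPTP 3 inside the Ctrl range. The score of MPTP 3 for the list was 0.02, against -1.28 and -1.02 in MPTP 1 and MPTP 2, so the list median became -1.21 without MPTP 3.

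The summed level of the 20 meningeal genes was 268 to 392 CPM in Ctrl and 142 to 275 CPM in MPTP, with none at 0 in all libraries. Its part in the lower contractile genes, which meningeal arteries also express, was not tested. Ptgds, prostaglandin D synthase of meninges and oligodendrocytes, followed the meningeal libraries at 1085, 787 and 355 CPM in Ctrl and 319.5, 318 and 561 CPM in MPTP. Haemoglobin genes, whose near-identical copies share reads, were lower too. Hbb-bs was at 63.4, 65.3 and 108 CPM in Ctrl and at 39.8, 62.2 and 49.9 CPM in MPTP, its groups apart only by the distance between Ctrl 1 and MPTP 2. The red-cell list of 7 genes had a median of -0.64, and -0.35 at its smallest on leaving out a library.

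**Figure D4:**
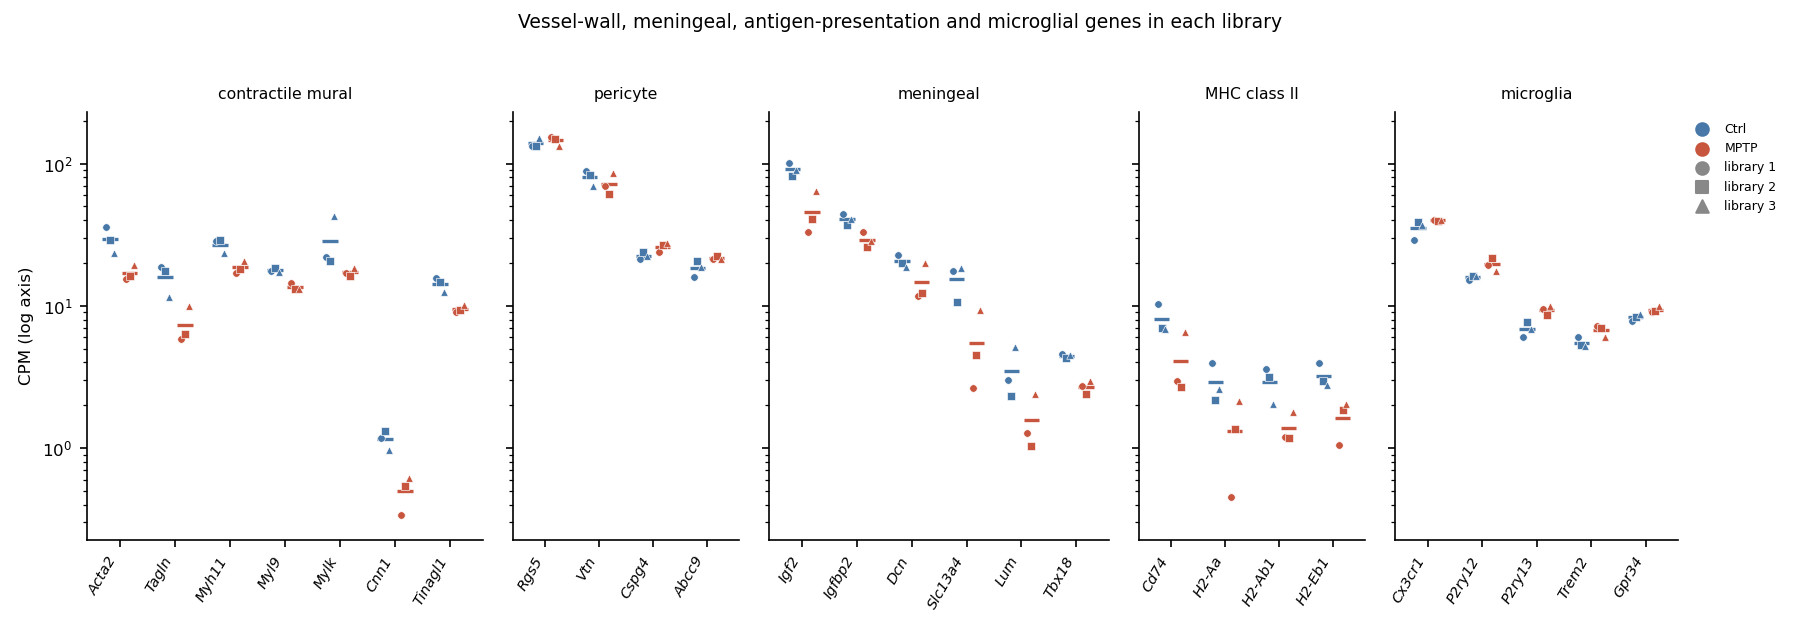
CPM (log axis) of contractile mural, pericyte, meningeal, MHC class II and microglial genes in each Ctrl (blue) and MPTP (red) library; marker shape gives the library number and lines the group means. The contractile genes drawn are lower in all 3 MPTP libraries, because they are the 7 mural genes with groups apart and lower. The pericyte genes drawn overlap or are higher, and include the 2 mural genes apart and higher. Other mural genes of the list are not drawn. MPTP 3 is the highest MPTP library for most meningeal genes drawn.

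Oligodendrocyte genes were higher as a class, with overlap between most libraries. Of 22 markers of mature oligodendrocytes 20 lay above 0 (median 0.18, range 0.11 to 0.25 on leaving out a library), while 2 had groups apart (9.09%, against 4.90% of all genes). Opalin, a membrane protein of myelin, was at 25.3, 31.9 and 25.04 CPM in Ctrl and at 41.3, 31.9 and 32.4 CPM in MPTP. Mag, myelin-associated glycoprotein, was at 260.1, 308 and 264 CPM in Ctrl and at 361, 324 and 297 CPM in MPTP, and Cnp, a myelin phosphodiesterase, at 422, 493 and 423 CPM against 527, 544 and 467 CPM. Ctrl 2 was the high control and MPTP 3 the low MPTP library for Mag and Cnp, and these 2 libraries crossed. Mbp, the most abundant gene of the list, was at 4657 to 5836 CPM in Ctrl and 4960.3 to 5970.2 CPM in MPTP.

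Ninj2 and Hapln2 were the separated oligodendrocyte genes. Hapln2, a link protein of the nodal matrix, was at 58.1, 59.6 and 53.1 CPM in Ctrl and at 62.0, 74.2 and 60.6 CPM in MPTP. Genes of earlier stages of the lineage were also listed. Among 15 genes of oligodendrocyte precursors 10 lay above 0 (median 0.07), led by Cspg4 and by Olig1, a lineage transcription factor at 226, 249 and 226 CPM in Ctrl and 287, 282 and 232 CPM in MPTP. Of 11 genes of newly formed oligodendrocytes 8 lay above 0 (median 0.05), and Enpp6 among them was at 12.3 to 16.6 CPM against 16.4 to 20.6 CPM.

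Homeostatic microglial genes were higher by small margins. Of 20 genes 15 lay above 0 (median 0.10, range 0.07 to 0.18 on leaving out a library) and 5 were apart and higher (25%, against 4.90% of all genes). P2ry12, the nucleotide receptor that guides resting processes, was at 15.2, 16.1 and 16.3 CPM in Ctrl and at 19.4, 21.7 and 17.5 CPM in MPTP. P2ry13, its neighbour and relative, was at 6.02, 7.64 and 6.88 CPM in Ctrl and at 9.48, 8.64 and 10.01 CPM in MPTP. Cx3cr1, the fractalkine receptor, was at 29.1, 38.7 and 37.1 CPM in Ctrl and at 40.1, 39.7 and 39.8 CPM in MPTP, so its difference rested mainly on Ctrl 1. Trem2 and Gpr34 were the other separated genes. Tmem119, a defining marker of microglia, overlapped at 14.1 to 19.4 CPM in Ctrl and 15.1 to 18.4 CPM in MPTP. The library scores of the list overlapped too, at 0.09 in Ctrl 2 and 0.07 in MPTP 3.

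Activation markers did not follow. In the list of disease-associated microglia 12 of 18 genes lay below 0 (median -0.03). Apart and higher were 2 (11.1%, against 4.90% of all genes), among them Tyrobp, the adaptor of TREM2. Cd63 alone was apart and lower (5.56%, as in all genes). Apoe, which activated microglia raise but astrocytes mostly supply, overlapped at 1329.8 to 1522 CPM in Ctrl and 1388 to 1436 CPM in MPTP. Aif1, a macrophage marker that stands on the homeostatic list, overlapped at 2.17, 3.64 and 1.92 CPM in Ctrl and 2.07, 2.05 and 3.09 CPM in MPTP. Of 18 cytokine, chemokine and NF-kB genes 8 lay above 0 and 10 below (median -0.02), and the 23 interferon-response genes had a median of -0.05.

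Genes of MHC class II antigen presentation were lower. H2-Ab1 was at 3.62, 3.14 and 2.04 CPM in Ctrl and at 1.19, 1.18 and 1.80 CPM in MPTP. H2-Eb1 was at 3.97, 2.94 and 2.78 CPM in Ctrl and at 1.05, 1.84 and 2.02 CPM in MPTP, and Cd74, the invariant chain, at 10.2, 7.02 and 6.88 CPM against 2.97, 2.69 and 6.52 CPM. With H2-Aa they were the 4 separated genes of 21 in the complement and antigen presentation list (19.0%, against 5.56%; median -0.11), and all are expressed at low levels. MPTP 3 was the highest MPTP library for these genes, as for the meningeal list. Mrc1, a marker of macrophages at vessels and meninges, was at 5.12, 4.68 and 4.67 CPM in Ctrl and at 3.28, 3.23 and 3.63 CPM in MPTP. The source of the class II RNA was not tested.

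Astrocyte genes were close between the groups. Of 20 homeostatic markers 13 lay above 0, with a median of 0.04. Gfap, the intermediate filament that rises in reactive astrocytes, was at 151, 205 and 153 CPM in Ctrl and at 169.9, 223 and 195 CPM in MPTP, and the groups overlapped (0.21 ± 0.18). The 19 tested reactive-astrocyte genes had a median of -0.13 with 15 below 0, and the 2 of them apart and lower were Hspb1, already described among the chaperones, and Gbp2, at 5.75, 3.82 and 3.87 CPM in Ctrl and 3.51, 3.29 and 3.66 CPM in MPTP. Vim, vimentin, which vessels and meninges also express, ranged from 30.3 CPM in MPTP 1 to 54.4 CPM in MPTP 3.

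**Figure D5:**
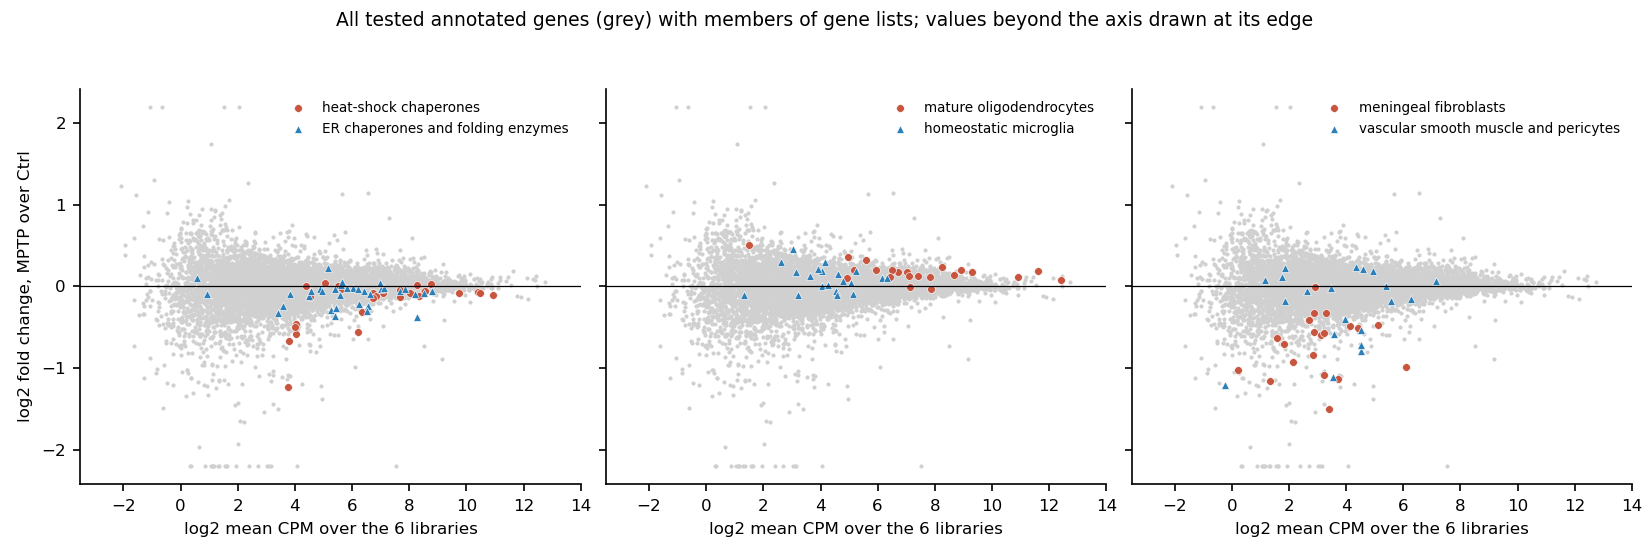
Log2 fold change of MPTP over Ctrl against log2 mean CPM for all tested annotated genes (grey), with members of 6 lists marked; values beyond the vertical axis are drawn at its edge. Heat-shock and ER genes lie mostly below 0 at middle and high levels, oligodendrocyte genes mostly above 0, and meningeal genes below 0 at low and middle levels.

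Receptor genes were listed by transmitter. Of 25 glutamate receptor genes 19 lay above 0 (median 0.08), 3 were apart and higher (12%, against 4.90%) and none was apart and lower; the list score was 0.07 in each MPTP library and at most 0.03 in Ctrl. Grm4, a presynaptic metabotropic receptor, was at 86.4, 85.8 and 72.9 CPM in Ctrl and at 104, 88.9 and 91.2 CPM in MPTP. Grin2c, an NMDA receptor subunit, was at 54.6, 45.8 and 50.6 CPM in Ctrl and at 70.3, 59.8 and 53.1 CPM in MPTP, with 1 overlap. Gria3 and Grin2d were also apart, by 0.13 ± 0.07 each. In the postsynaptic density list 17 of 23 genes lay above 0 (median 0.07), Shank1, a scaffold, being at 298, 299 and 282 CPM in Ctrl and 365, 327 and 321 CPM in MPTP.

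Of the receptors for dopamine, serotonin and acetylcholine 21 of 29 lay below 0 (median -0.12, but -0.052 without MPTP 1 and -0.063 without Ctrl 2), with 4 apart and lower (13.8%, against 5.56%). They were Chrna6, Chrna3, Htr1b and Htr2c. Htr2c, a serotonin receptor abundant in nigra, was at 168, 171 and 192 CPM in Ctrl and at 148, 158 and 157 CPM in MPTP. Htr1b, a serotonin receptor that also stands on the raphe list, was at 24.5, 26.5 and 29.9 CPM in Ctrl and at 23.2, 21.0 and 22.0 CPM in MPTP. The 21 GABA and glycine receptor genes had a median of -0.01 with none apart. Thalamic markers were highest in MPTP 1, as given above, and their part in the glutamate-receptor and postsynaptic values was not tested.

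Genes of the respiratory chain, the site of action of the toxin, differed little. Of 37 nuclear genes of complex I 29 lay below 0, but the median was -0.04 and changed sign on leaving out a library (-0.09 to 0.01). Ndufv3, a subunit of the NADH-binding module, was at 33.4, 32.4 and 32.5 CPM in Ctrl and at 30.3, 31.2 and 29.7 CPM in MPTP and was the 1 gene apart and lower, while Ndufa13 was apart and higher. The 40 genes of complexes II to V had a median of -0.02 and the 13 mitochondrially encoded genes one of 0.00, the scores of MPTP 1 and MPTP 3 lying on opposite sides of the Ctrl mean in each of these 3 lists (0.05 and -0.13 for complex I). The 36 proteasome genes lay below 0 in 31 cases with a median of -0.04, and 76 ribosomal protein genes in 58 cases with a median of -0.04. These medians were -0.012 without MPTP 2 for the proteasome and -0.0022 without MPTP 3 for the ribosomal proteins, so each rested largely on 1 library.

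Genes that handle MPTP itself gave no separation: of 12 genes for its activation and for monoamine breakdown 8 lay below 0 (median -0.07) and none had groups apart. Antioxidant genes under NRF2 were split, 14 above and 14 below 0. Nfe2l2, which encodes NRF2, was nevertheless at 22.1, 20.8 and 24.4 CPM in Ctrl and at 17.3, 18.5 and 16.9 CPM in MPTP, with groups apart (-0.35 ± 0.10). Slc5a3, the myo-inositol transporter induced by hypertonicity, was at 78.7, 76.7 and 83.4 CPM in Ctrl and at 59.0, 64.9 and 61.4 CPM in MPTP (-0.37 ± 0.06, adjusted p 0.21 in edgeR's quasi-likelihood test). Slc6a6, the taurine transporter with the same kind of control, was apart in the opposite direction at 118 to 129 CPM in Ctrl and 134 to 137 CPM in MPTP. Within glycolysis, Gapdh was listed at 59.2, 26.1 and 48.0 CPM in Ctrl and at 25.3, 24.9 and 1.18 CPM in MPTP, values that are uncertain because the gene has many near-identical copies, and the list median was 0.00.

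No gene rose past the adjusted threshold in edgeR's quasi-likelihood test, while DESeq2 called Fzd6 higher (0.51, adjusted p 0.028), and the 15 with the smallest p in that direction came from several kinds of cell. Fzd6, a Wnt receptor, was at 11.3, 12.1 and 13.9 CPM in Ctrl and at 18.8, 16.6 and 17.7 CPM in MPTP (0.51 ± 0.11, adjusted p 0.40 in edgeR's quasi-likelihood test). Prox1, a homeodomain factor of thalamic and hippocampal neurons and of the oligodendrocyte lineage, was at 54.96, 50.2 and 54.98 CPM in Ctrl and at 74.3, 63.2 and 63.4 CPM in MPTP. Srsf5, a splicing factor, was at 132, 114 and 117 CPM in Ctrl and at 146, 139 and 147 CPM in MPTP. Chadl, a chondroadherin-like matrix protein, was at 14.5, 15.96 and 14.8 CPM in Ctrl and at 18.7, 19.6 and 19.6 CPM in MPTP. Kndc1, Zc3h6, Nav2, Dbn1 (drebrin of dendritic spines), Ano8, Secisbp2l, Poll, Plekhd1, St8sia5, Dapk2 and Rnf26 made up the rest, from 0.22 for Ano8 and Kndc1 to 0.93 for Dapk2. In all 15 the groups were apart, which follows largely from the choice by smallest p in the same libraries.

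The 15 genes of smallest p in the lower direction included members of several lists. Dnajb1, Hspa1b, Hspb1 and Dnajb4 are cytosolic chaperones, Hspa5, Dnajc3 and Xbp1 belong to ER folding, Serpinh1 and P4ha1 to collagen folding, and Fos and Nr4a1 to the immediate early genes. Slc5a3, Vegfa, Tinagl1 and Ccdc117 were the others, Ccdc117 being at 25.7, 25.1 and 29.5 CPM in Ctrl and 18.9, 19.9 and 21.4 CPM in MPTP. All 15 had groups apart and kept their sign on leaving out each library, the smallest difference in any of these settings being -0.22 for Dnajc3. Both traits follow largely from choosing genes by smallest p in the same libraries, so they add no support.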

How the data were processed

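Bulk RNA was extracted from the substantia nigra pars compacta of mice with a column kit and made into NEBNext Ultra libraries, per the labels' protocols. Per the file headers, the authors deposited 1 table that pairs, for every gene and library, unnormalized read counts with FPKM values. Per the submitters' processing notes the genome build was mm10 (GRCm38). The sources used here name no aligner, counting tool, annotation release or strand setting, so overlapping and antisense genes may share reads. Lines that named no gene (10) were left out, 27 symbols turned into dates were restored from their identifiers, and 0 columns belonged to no mapped sample. Of the 13810 genes compared 13806 matched GENCODE on GRCm38 and 99.9% were protein coding.

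Counts were tested with edgeR 4.0.16 in R 4.3.3 (quasi-likelihood, robust, TMM factors of 0.983 to 1.02) over all 9 libraries, on the 14949 genes at or above the FPKM minimum, 1139 of them unannotated. The design foresaw a count test if the table held counts, and it did. Adjusted p-values are Benjamini-Hochberg values over all 14949 genes with a threshold of 0.05. The common biological coefficient of variation was 0.134. Every pair of libraries within a group differed by more than sampling noise. The steps were tested on simulated data. The members and gene lists were chosen with earlier results of these data known, so they are described by counts and medians and not tested. Named were genes past the threshold, the 15 of smallest p in each direction with an approved symbol and a mean FPKM from 1 upward, a fixed set of cell-type and tissue genes, and per list the 3 of highest FPKM, the 4 of smallest p and those with groups apart. Genes outside these (some drawn only in the plots, Hsph1, Dnajb6, Hspd1, Hspe1, Chordc1 and the genes of the ER stress element) were chosen after their values were seen. Alternatives were other scalings, filters, tools (DESeq2 1.42.0, limma 3.58.1) and leaving out libraries.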

Additional observations from a re-analysis of the deposited data

How the results depend on the processing

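Calls depended on the tool, the filter and the libraries included. Against 2 genes in the reported fit (740 at an unadjusted p under 0.05), library totals alone gave 1, edgeR without robust moderation 0 (792 unadjusted), DESeq2 12, and limma 0 on log2(FPKM + 0.5), on log2(FPKM + 1) and with array weights (801, 802 and 954 unadjusted). Leaving out 1 of the 9 libraries gave 0 to 4 calls, with Dnajb1 lost without Ctrl 2, Ctrl 3, MPTP 2 or MPTP 3 and Hspa1b lost on leaving out any library of Ctrl or MPTP, or library 3 of the diet group. Without both Ctrl 3 and MPTP 1, libraries doubted for the tissue they held, 1 gene was called, which was neither of them. DESeq2 added Hspb1, P4ha1, Fos, Fzd6, Vegfa, Hspa5, Dnajb4, Serpinh1, Slc5a3 and Fam205a1. In edgeR's quasi-likelihood test Hspa5 was called with only the 6 libraries of Ctrl and MPTP (adjusted p 0.034). The same test called it with no filter on low values (0.013) and without library 1 of the diet group (0.022). It was not called on leaving out any library of Ctrl or MPTP. Dnajb1 and Hspa1b kept their sign in every setting run. With the replicate number as a block 3 genes were called, Fos being added; same-numbered libraries correlated at -0.151 to 0.0472 after removing group means, so the numbers were not taken to pair the samples. Genes with groups apart numbered 2470 to 3186 on leaving out 1 library, against 1444, since fewer libraries are compared.

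List medians moved as follows, with the range on leaving out 1 library where that moved them. Dopamine synthesis and storage ranged from -0.50 to -0.25 and was -0.23 without Ctrl 3 and MPTP 1, and dopamine transcription factors were then at -0.028. Homeostatic microglia ranged from 0.074 to 0.18, meningeal fibroblasts from -1.21 to -0.37 and the integrated stress response from -0.0094 to 0.062. Heat-shock chaperones ranged from -0.13 to -0.054 and were at -0.13 without Ctrl 3 and MPTP 1. Means over members were -0.19 for heat-shock chaperones, -0.10 for ER folding genes, -0.24 for mural genes and -0.017 for the integrated stress response, whose median was above 0. Immediate early transcription factors ranged from -0.38 to -0.20, and were at -0.16 with a fit at a mean FPKM of at least 2, -0.16 over members of at least that level, -0.20, -0.15 and -0.19 in the 3 limma fits, and -0.16 without Ctrl 3 and MPTP 1. The cause was not tested. Over all lists and settings 67 of 1721 medians moved by more than 1 SD of the list score between libraries, pooled over Ctrl and MPTP. Leaving out 1 of 3 libraries can hardly shift a group mean by that much, so the low count does not speak for steady medians. As given above, 70 of 75 medians moved by over 1.5 times or turned sign on leaving out a library.

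Signs turned in 27 of 3572 settings of named genes, all of them with wide spread or near 0. Leave-one-out values ranged from -0.32 to 0.23 for Aif1, -0.071 to 0.030 for Apoe, -0.15 to 0.44 for Derl3, -0.10 to 0.028 for Hspe1, -0.077 to 0.017 for Jun, -0.069 to 0.040 for Pgk1, -0.91 to 0.0014 for Sgk1, -0.026 to 0.062 for Syvn1, -5.61 to 0.53 for Tph1, -0.73 to 0.33 for Tph2, -5.82 to 0.72 for Ttr and -0.40 to 0.0053 for Vim. Without both Ctrl 3 and MPTP 1, Derl3 was at -0.14, Gch1 at 0.050, Tph1 at 0.90, Tph2 at 0.81, Ttr at 0.72 and Vim at 0.037, and in limma with array weights Clock was at 0.0048, Derl3 at -0.011 and Syvn1 at -0.012. Precision is limited by 3 libraries a group.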

Other observations

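Several splicing regulators were apart and lower in MPTP, within a list of 26 temperature-sensitive RNA-binding and SR genes whose median was -0.03. Tra2b, a splicing activator, was at 78.0, 80.9 and 83.4 CPM in Ctrl and at 65.6, 71.8 and 72.1 CPM in MPTP. Clk1, the kinase that phosphorylates SR proteins, was at 65.1, 66.0 and 76.0 CPM in Ctrl and at 52.8, 64.6 and 56.7 CPM in MPTP. With Srsf1, Srsf3 and Tra2a these made 5 genes apart and lower (19.2%, against 5.56% of all genes), while Srsf5 was apart and higher, and the list median changed sign on leaving out a library.

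Extracellular matrix genes were apart in both directions. Of 58 tested genes 8 were apart and higher (13.8%, against 4.90% of all genes) and 2 apart and lower, and the median of -0.04 changed sign without MPTP 1. Among the 8 higher, Col11a2, a fibrillar collagen chain, was at 16.4, 20.5 and 21.6 CPM in Ctrl and at 22.1, 22.3 and 23.5 CPM in MPTP. Hspg2, perlecan of vascular basement membrane, was at 23.8, 24.4 and 26.9 CPM in Ctrl and at 16.8, 16.4 and 21.6 CPM in MPTP, and Bgn, biglycan, at 24.8, 22.97 and 18.8 CPM against 12.5, 10.48 and 17.5 CPM. For both lower genes MPTP 3 was the highest MPTP library, as for the meningeal genes. Among Wnt-pathway genes, Fzd4, the receptor needed by brain vessels, was at 21.2, 17.0 and 22.1 CPM in Ctrl and at 12.1, 14.4 and 16.6 CPM in MPTP, opposite in sign to Fzd6.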
